A study of Arabidopsis thaliana with 48 samples.

Results

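The 92 genes described here were near silent in wild-type (WT) Arabidopsis thaliana seedlings and detected in acc1-5 seedlings. They were chosen by their levels in these libraries. For each gene, the transcript with the highest level averaged over both genotypes was taken, and the gene was kept where that transcript was at least 200 bases long, stood under 0.5 FPKM in WT and at 2 FPKM or more in acc1-5, and had a lower bound in acc1-5 above the upper bound in WT. FPKM, a count of fragments scaled to transcript length and sequencing depth, is the unit of level throughout, and the bounds are the authors' confidence limits of each level. Of 33553 genes, 93 met these limits, and 1 of them was set aside. The remaining 92 are 0.780% of the 11788 genes of sufficient length that stood under 0.5 FPKM in WT. Because the levels chose the genes, the differences between genotypes below are a description and not a test.

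The acc1-5 seedlings carry an allele of ACC1, which encodes the cytosolic acetyl-CoA carboxylase, and the WT seedlings are of the Col-0 ecotype. All were 12 days old and grown on half-strength Murashige and Skoog medium in days of 16 h of light with 8 h of darkness. The labels give 3 RNA libraries of acc1-5 and 3 of WT within a series of 48 samples, of which the 42 chromatin and input libraries were left out here. The labels repeat a spray of 20 µM estradiol or its solvent, given for 24 h from day 11, for every sample, so it stays unclear if the RNA came from sprayed seedlings. Each genotype has 1 level per transcript in the deposited table, so no spread between libraries can be given, and no label tells if the libraries of a genotype were grown apart.

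Acetyl-CoA carboxylase turns acetyl-CoA into malonyl-CoA, the carbon donor for fatty acid elongation and for flavonoids in the cytosol, and cytosolic acetyl-CoA is also drawn on for other acetylated products. Many genes at such low levels in whole seedlings are known to be active in few cells, such as the root cap or a lateral root founder cell, or only under a stimulus such as heat, low oxygen or wounding. In whole seedlings, a larger number of expressing cells and more RNA per cell cannot be told apart.

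ACC1 itself (AT1G36160) stood at 33.4 FPKM (21.4 to 45.4) in acc1-5 and at 33.1 FPKM (21.6 to 44.7) in WT, and no label tells if the allele alters its transcript. Over all 20509 tested genes, the median level was 12.9 FPKM in acc1-5 and 12.6 FPKM in WT. The authors' program called 2236 of them higher in acc1-5 (10.9%) and 1855 lower (9.04%) at q under 0.05 in the authors' deposited table. Root hair markers were called higher for 8 of 8 tested genes, with summed levels of 138 FPKM in acc1-5 and 17.2 FPKM in WT, and none was listed at 0. Markers of the root endodermis and its suberin were called higher for 12 of 14 tested genes, with sums of 118 FPKM in acc1-5 and 40.5 FPKM in WT, and none was listed at 0. Markers of flower organ identity went the other way, with 4 of 7 called lower, 0 called higher, and sums of 15.8 FPKM in acc1-5 and 37.1 FPKM in WT. Pollen markers were near 0 in both genotypes, since the 4 listed genes summed to 0.0341 FPKM in acc1-5, with VGD1 and DAF1 listed at 0, and all 4 were listed at 0 in WT. None of these markers is among the 92 genes, and the part of such cells in the levels below was not tested.

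Levels of the 92 genes were low in acc1-5 too. Their acc1-5 level ranged from 2.01 to 17.9 FPKM with a median of 3.15 FPKM, and their WT level from 0 to 0.495 FPKM with a median of 0.298 FPKM. In acc1-5, 11 genes reached 5 FPKM, 37 lay between 3 and 5 FPKM and 44 below 3 FPKM. On the scale of log2((acc1-5 FPKM + 0.1) / (WT FPKM + 0.1)), their median difference was 3.03, with an interquartile range of 2.63 to 3.79 and a range of 1.90 to 7.49, beside a median of -0.01 over all tested genes. The lower bound in acc1-5 was a median 2.05 times the upper bound in WT over the 87 genes with a WT bound above 0, and the ratio ranged from 1.05 to 40.1.

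**Figure D1:**
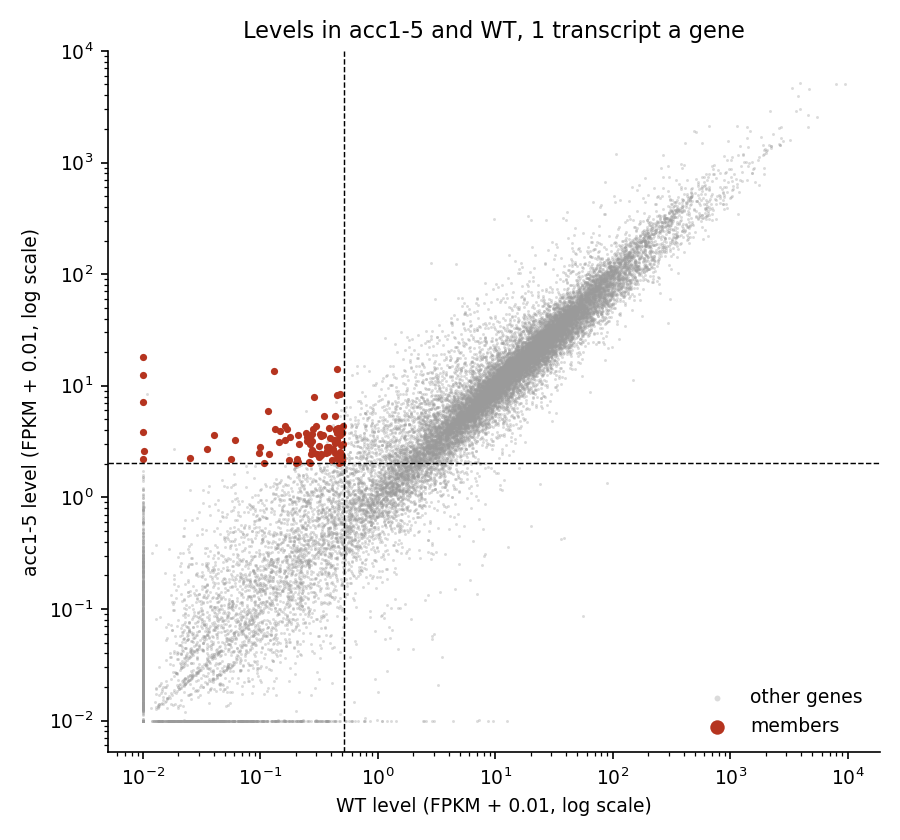
Transcript level in acc1-5 (vertical axis) against WT (horizontal axis), both in FPKM + 0.01 on log scales, with 1 point per gene. The 92 genes (red) fill the upper left corner marked by the dashed limits of 2 FPKM in acc1-5 and 0.5 FPKM in WT, while most other genes (grey) lie along the diagonal.

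The bounds give a measure of how thinly these levels were covered. For short or low transcripts, the upper bound multiplied by transcript length in kilobases mostly lay on whole multiples of 0.0453 in both genotypes. It lay within 5% of a step from a multiple for 96.0% of 3055 low acc1-5 values and 95.7% of 3013 low WT values. Counted in these steps, each of which would be 1 fragment at a common depth, the lower bound in acc1-5 was 3 to 496 steps with a median of 27, and the upper bound in WT 0 to 65 steps with a median of 12. For 11 of the 92 genes the lower bound in acc1-5 was 10 steps or fewer. Those named below are TOM20-1 (10 steps), MYB113 and AT1G76640 (9 each), AT4G05370 (8), AT4G26460 (7), GDU6 and AT3G60650 (4 each) and AT4G22460 (3). The levels themselves did not lie on such multiples, so the depth of single libraries is unknown.

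The 92 genes were mostly protein-coding, and most had no gene symbol. RefSeq lists 85 of them as protein-coding (92.4%, beside 82.6% of all genes of that length), 2 as non-coding RNA, 3 as transcribed pseudogenes and 1 as a pseudogene, and AT4G05370 was not matched. Pseudogenes of both kinds make up 4.35% of the 92 and 14.9% of all genes of that length. A gene symbol in RefSeq is held by 31 of the 92. The other 61 stood between 2.03 and 17.9 FPKM in acc1-5, with a median of 3.25 FPKM, and between 0 and 0.495 FPKM in WT, with a median of 0.286 FPKM. Transcripts of the 92 were short, with a median of 1042 bases beside 1356 bases for all genes of at least 200 bases and 1480 bases for the tested genes. A single annotated transcript was held by 82 of the 92 (89.1%), beside 81.2% of all genes of that length. In these traits the 92 were not compared with the other genes under 0.5 FPKM in WT. The part of the selection in these differences was not tested.

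The genes listed at 0 in WT include a neighbouring pair on chromosome 4. AT4G19239, a transcribed pseudogene of 261 bases, stood at 17.9 FPKM in acc1-5 and was listed at 0 in WT. Its acc1-5 estimate lies above its own bounds of 2.43 to 14.6 FPKM, the only such case among the 92, so its level is uncertain. AT4G19240, a protein-coding gene, stood at 12.5 FPKM (7.00 to 18.1) in acc1-5 and was listed at 0 in WT, with an upper WT bound of 0. Both were listed at 0 in WT, and no fold change can be given for either. The other genes listed at 0 in WT were AT4G12170 at 7.16 FPKM (1.74 to 10.5) in acc1-5, the pseudogene AT1G44510 at 3.85 FPKM (2.48 to 5.22) and AT4G22460 at 2.18 FPKM (0.338 to 3.95). The lower acc1-5 bound of AT4G22460 is 3 steps, the fewest of the 92.

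Above 5 FPKM in acc1-5, the genes differed in how low they stood in WT. AT2G38240 had 14.02 FPKM (7.36 to 20.6) in acc1-5 and 0.441 FPKM (0.102 to 0.813) in WT. FH3 (AT4G15200, formin 3), whose product nucleates actin filaments and is known from pollen tubes, had 13.5 FPKM (8.48 to 18.5) in acc1-5 and 0.119 FPKM (0 to 0.231) in WT. The pollen markers named above summed to 0.0341 FPKM in acc1-5, and the gene 579 bases after FH3, BAM5, stood at 332.55 FPKM in acc1-5. AT4G16920 had 8.48 FPKM (5.74 to 11.2) in acc1-5 and 0.467 FPKM (0.185 to 0.752) in WT, and its lower acc1-5 bound of 496 steps is the deepest of the 92. SK11 (AT4G34210), an SKP1-like gene of the family that builds ubiquitin ligases, had 8.27 FPKM (2.27 to 13.0) in acc1-5 and 0.439 FPKM (0 to 0.790) in WT. The non-coding RNA AT2G01422 had 7.95 FPKM (3.79 to 12.1) in acc1-5 and 0.278 FPKM (0 to 0.536) in WT. scpl30 (AT4G15100), a serine carboxypeptidase-like gene of a family known for peptidases and acyltransferases, had 5.95 FPKM (2.81 to 9.08) in acc1-5 and 0.107 FPKM (0 to 0.216) in WT. AT5G55410 and AT5G04120 had 5.37 and 5.31 FPKM in acc1-5, and 0.338 and 0.421 FPKM in WT. Of these genes, FH3 and scpl30 were the lowest above 0 in WT.

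The next genes by level stood between 3.85 and 4.38 FPKM in acc1-5. AT5G55110 had 4.38 FPKM in acc1-5 and 0.286 FPKM in WT. AT2G36210, which RefSeq also names SAUR45 after a family of small auxin-responsive genes, had 4.36 FPKM (1.72 to 6.99) in acc1-5 and 0.495 FPKM (0.0592 to 0.889) in WT. AT1G76640, also named CML39, a calmodulin-like gene, had 4.09 FPKM (0.850 to 6.70) in acc1-5 and 0.158 FPKM (0 to 0.283) in WT. CCP3 (AT2G25240) had 4.06 FPKM (2.01 to 6.10) in acc1-5 and 0.427 FPKM (0.0718 to 0.754) in WT. AT2G41970, AT5G60520, AT3G60650, AT5G23840, AT4G26460 and AT3G04330, which have no symbol, lay between 3.86 and 4.18 FPKM in acc1-5 and between 0.123 and 0.444 FPKM in WT. ADPG1, HSP17.6II and LEA18, of the same range, are given with their groups below.

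**Figure D2:**
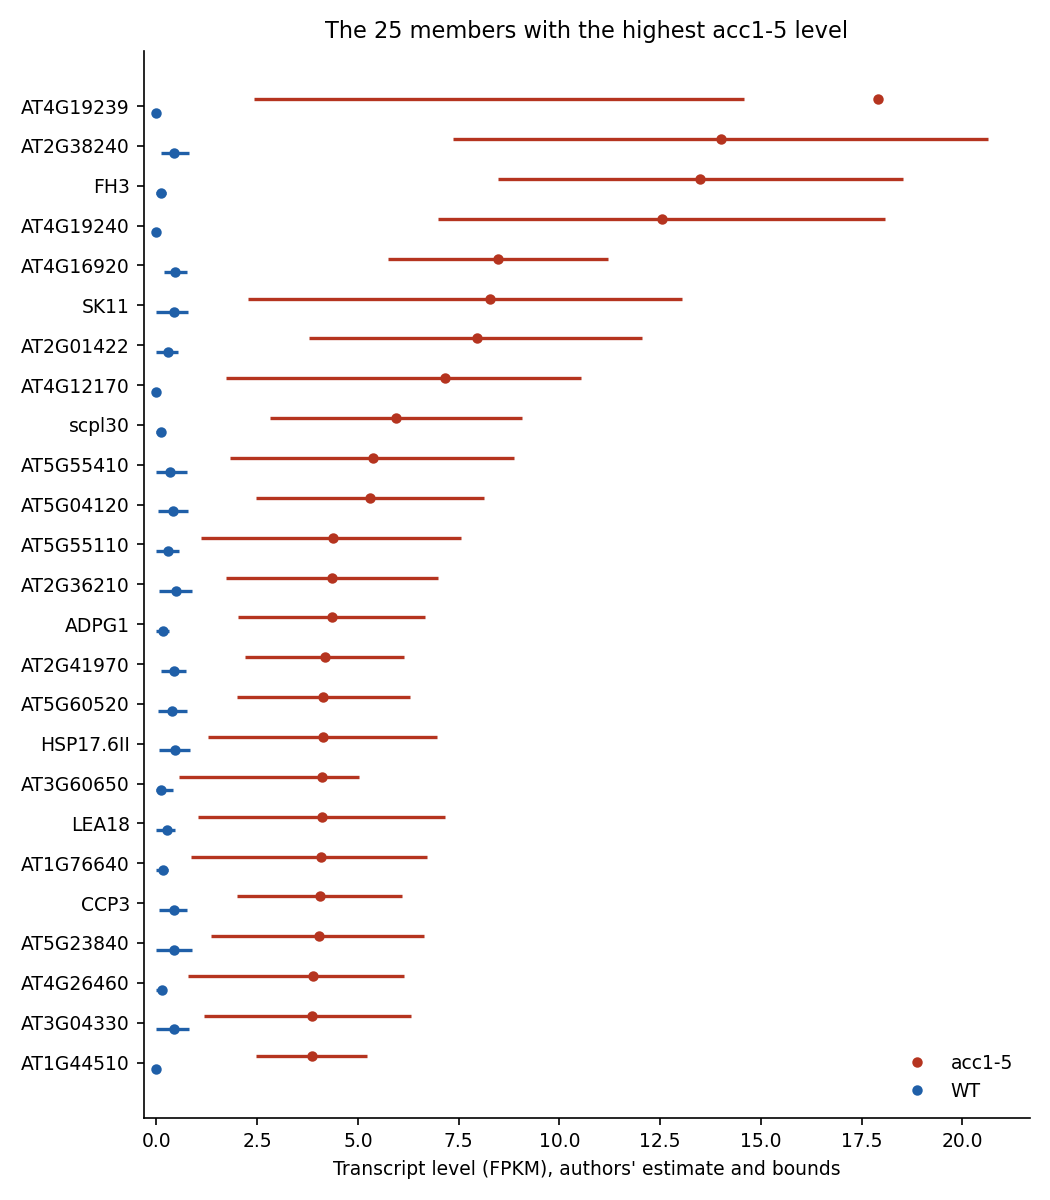
Levels of the 25 genes with the highest acc1-5 level, in FPKM, with the authors' estimate (point) and bounds (line) for acc1-5 (red, upper of each row) and WT (blue, lower). Every WT upper bound lies left of the acc1-5 lower bound, as the selection requires, and the point of AT4G19239 at 17.9 FPKM lies outside its own bounds of 2.43 to 14.6 FPKM.

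The 31 genes with a symbol were sorted by role after the members were known. The largest such groups were 8 transcription factor genes and 8 enzyme genes, followed by 4 cell wall genes and 4 transport genes.

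The transcription factor genes stood between 2.15 and 3.67 FPKM in acc1-5 and between 0.108 and 0.469 FPKM in WT. WRKY62, a factor known to dampen basal defence, had 3.67 FPKM (1.58 to 5.76) in acc1-5 and 0.262 FPKM (0.0464 to 0.511) in WT. WRKY59 had 2.86 FPKM (0.819 to 4.84) in acc1-5 and 0.306 FPKM (0 to 0.595) in WT. LBD16, which acts downstream of auxin in the founding of lateral roots, had 2.54 FPKM (1.07 to 3.98) in acc1-5 and 0.469 FPKM (0.123 to 0.821) in WT. PAP1, the MYB factor also named MYB75 that turns on anthocyanin synthesis, had 2.46 FPKM (0.942 to 3.97) in acc1-5 and 0.425 FPKM (0.0992 to 0.793) in WT. MYB113, a related activator of the same pathway, had 2.15 FPKM (0.550 to 3.73) in acc1-5 and 0.165 FPKM (0 to 0.306) in WT. Of the other factors of that small group, MYB90 stood at 9.38 FPKM in acc1-5 and 4.17 FPKM in WT, and MYB114 at 0.692 FPKM in acc1-5 and 0.712 FPKM in WT. NAC015, also named BEARSKIN1, which matures root cap cells, had 2.45 FPKM (0.932 to 3.92) in acc1-5 and 0.293 FPKM (0 to 0.539) in WT. ERF71, also named HRE2, a factor of the low-oxygen response, had 2.41 FPKM (0.795 to 3.98) in acc1-5 and 0.260 FPKM (0 to 0.464) in WT. ZFP10, a zinc finger gene, had 2.46 FPKM (0.891 to 4.01) in acc1-5 and 0.108 FPKM (0 to 0.198) in WT, the lowest WT level of the 8.

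Genes of the cell wall and of auxin were among the 92. ADPG1 (AT3G57510), a polygalacturonase that cuts pectin where organs are shed and pods open, had 4.36 FPKM (2.04 to 6.67) in acc1-5 and 0.152 FPKM (0 to 0.311) in WT. EXPA17, an expansin that loosens walls, had 2.68 FPKM (0.944 to 4.37) in acc1-5 and 0.0249 FPKM (0 to 0.177) in WT. AGP30, an arabinogalactan protein of roots, had 2.34 FPKM in acc1-5 and 0.477 FPKM in WT, and XTH20, a xyloglucan-remodelling enzyme, 2.24 FPKM in acc1-5 and 0.438 FPKM in WT. YUC3, a flavin monooxygenase of the last step of auxin synthesis, had 2.34 FPKM (1.15 to 3.55) in acc1-5 and 0.481 FPKM (0.130 to 0.809) in WT. NPY2, of a family that acts with the YUC genes in organ formation, had 2.03 FPKM (0.952 to 3.09) in acc1-5 and 0.460 FPKM (0.119 to 0.785) in WT.

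Enzyme genes spanned carbon, lipid and phosphate metabolism. PCK2, a phosphoenolpyruvate carboxykinase of gluconeogenesis, had 2.83 FPKM (1.46 to 4.19) in acc1-5 and 0.375 FPKM (0.104 to 0.646) in WT. CYP71A16, the marneral oxidase of a root triterpene pathway, had 2.56 FPKM (1.24 to 3.87) in acc1-5 and 0.364 FPKM (0.108 to 0.645) in WT. SQP2, named squalene monooxygenase 2 in RefSeq, had 2.50 FPKM (1.21 to 3.77) in acc1-5 and 0.349 FPKM (0.0775 to 0.620) in WT. UGT72E3, a glucosyltransferase of lignin precursors, had 2.07 FPKM in acc1-5 and 0.248 FPKM in WT. GDPD3, which splits glycerophosphodiesters, had 2.07 FPKM in acc1-5 and 0.479 FPKM in WT. The beta-glucosidase gene BGLU27 had 2.01 FPKM in acc1-5 and 0.256 FPKM in WT. PAP5, a purple acid phosphatase gene, had 3.64 FPKM (1.70 to 5.55) in acc1-5 and 0.0302 FPKM (0 to 0.0755) in WT, so that its WT level was the lowest of the enzyme genes.

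Among transport and stress genes, ABCG43, a full-size ABC transporter gene, had 3.24 FPKM (2.04 to 4.43) in acc1-5 and 0.436 FPKM (0.174 to 0.696) in WT. GDU6, of a family that promotes amino acid export, had 3.57 FPKM (0.539 to 4.45) in acc1-5 and 0.198 FPKM (0 to 0.270) in WT, with a lower acc1-5 bound of 4 steps. UMAMIT34, of a family of amino acid transporters, had 3.51 FPKM (1.37 to 5.61) in acc1-5 and 0.317 FPKM (0 to 0.606) in WT, at a locus that overlaps another gene. TOM20-1, an import receptor of the mitochondrial outer membrane, had 2.02 FPKM in acc1-5 and 0.191 FPKM in WT. HSP17.6II, a small heat shock protein gene, had 4.14 FPKM (1.29 to 6.97) in acc1-5 and 0.468 FPKM (0.0646 to 0.839) in WT. LEA18, a late embryogenesis abundant gene of drying seeds, had 4.10 FPKM (1.02 to 7.17) in acc1-5 and 0.272 FPKM (0 to 0.465) in WT. Its lower acc1-5 bound is 11 steps, close to the 10 steps used above to mark thin support.

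Set beside their own gene families, the named genes were mostly not the main members by level. The limit of 0.5 FPKM in WT favours such a low rank by itself, so the ranks are a description only. The 23 families were taken from shared symbols after the members were known. YUC3 was the exception, ranking 1 of 11 YUC genes in acc1-5 and 5 of 11 in WT. YUC8, next to it by acc1-5 level, stood at 2.24 FPKM in acc1-5 and 0.589 FPKM in WT and was also called higher. In families with a strongly expressed copy, the gene described here stood far below it, which the selection fixes for WT. UGT72E1 stood at 122 FPKM in acc1-5 and 52.2 FPKM in WT, UGT72E2 at 56.8 FPKM in acc1-5 and 18.5 FPKM in WT, and both were called higher. PCK1 stood at 426 FPKM in acc1-5 and 231 FPKM in WT, against levels under 3 FPKM for PCK2 in both, and was called higher too.

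Other families did not move as one. SQP1 was called lower, at 6.91 FPKM in acc1-5 and 11.3 FPKM in WT (q = 0.0325 in the authors' deposited table), whereas SQP2 was called higher. TOM20-2, TOM20-3 and TOM20-4 stood between 40.4 and 51.4 FPKM in acc1-5 and between 39.5 and 41.9 FPKM in WT, and none was called. Of 3 other NPY genes, NPY4 was called higher and NPY3 lower, and of 7 tested GDU genes 0 was called. GDPD2 and GDPD5 were called higher among 3 other tested GDPD genes. In families of more than 5 genes, the other tested genes were called higher for 16 of 58 WRKY genes (4 lower), 19 of 76 MYB genes (12 lower), 12 of 57 NAC genes (3 lower) and 13 of 35 ABCG genes (4 lower). They were called higher for 8 of 31 SCPL genes (5 lower), 6 of 34 UMAMIT genes (3 lower), 7 of 27 AGP genes (4 lower), 4 of 16 LBD genes (1 lower) and 2 of 18 ERF genes (2 lower). The counts were 4 of 10 CYP71A genes (1 lower), 1 of 14 genes with an SK symbol (0 lower), 1 of 8 ZFP genes (1 lower) and 2 of 6 YUC genes (0 lower). The SK symbol is not limited to SKP1-like genes, and SK13 names both AT3G60010 and AT5G14640. The SK count is therefore not one of the SKP1-like family. Among families of wall and sugar enzymes the counts were 8 of 16 EXPA genes (1 lower), 9 of 25 XTH genes (3 lower) and 11 of 29 BGLU genes (2 lower), beside 10.9% of all tested genes called higher and 9.04% called lower.

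**Figure D3:**
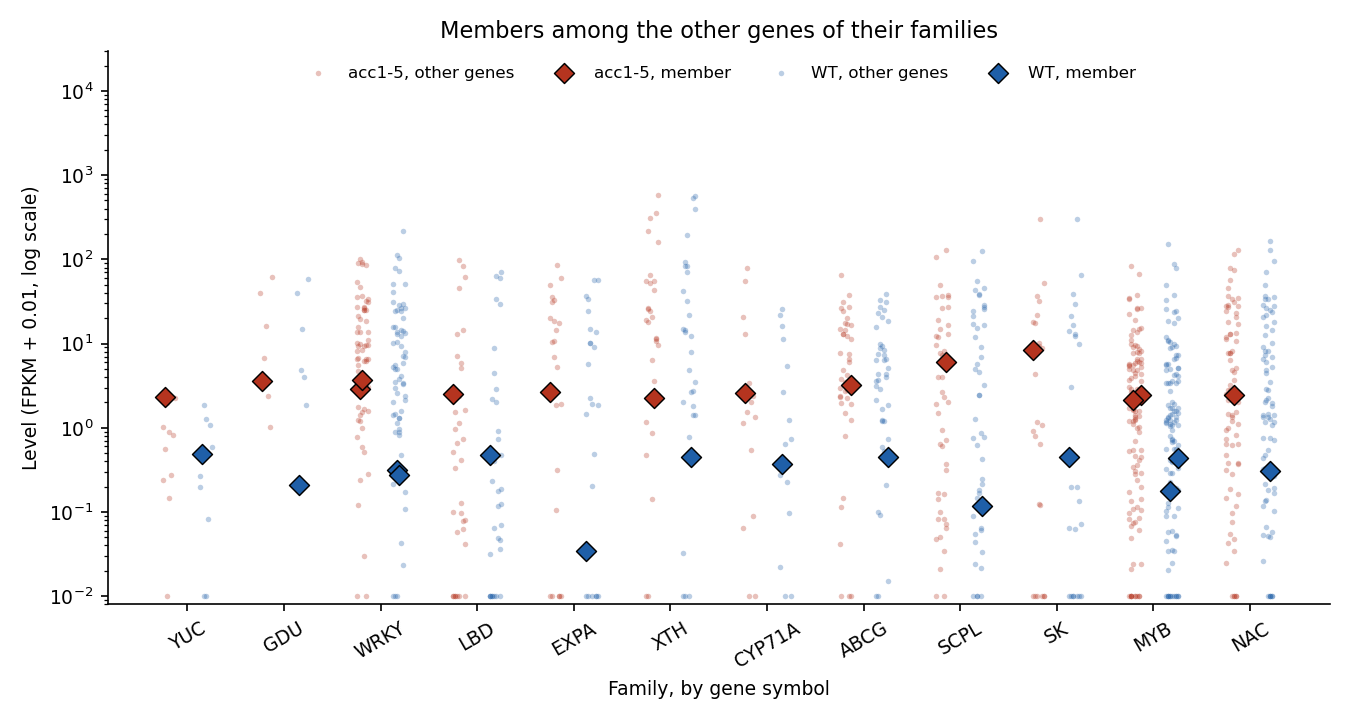
Levels in FPKM + 0.01 on a log scale for 12 of the 23 families, with 1 point per gene in acc1-5 (red, left) and WT (blue, right) and diamonds for the genes near silent in WT. In most families the diamonds lie below the highest points in acc1-5, and YUC3 is the highest YUC gene there. Families are grouped by symbol alone, and SK is not limited to SKP1-like genes.

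A few of the 92 genes fall in pathways that were listed by function, with earlier results of these libraries known. Counts for each list include its genes of the 92, which were chosen for a higher level in acc1-5. Over all tested genes, 10.9% were called higher and 9.04% lower. Of 10 low-oxygen genes, 9 were called higher and 0 lower, ERF71 among them. The other factor of its kind on that list, ERF73, had 11.3 FPKM in acc1-5 and 7.29 FPKM in WT and was not called (q = 0.108 in the authors' deposited table). Of 9 tested genes of root triterpene clusters, 8 were called higher and 0 lower, and CYP71A16 and AT5G47980 belong to the 92. AT5G47980 had 2.71 FPKM (1.25 to 4.16) in acc1-5 and 0.408 FPKM (0.0856 to 0.713) in WT, while the thalianol synthase gene THAS1 of its cluster stood at 15.0 FPKM in acc1-5 and 2.23 FPKM in WT. MRN1, the marneral synthase gene of the step before CYP71A16, stayed below the limit of 2 FPKM, at 0.437 FPKM in acc1-5 and 0.0125 FPKM in WT, and was not tested.

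Heat shock and root cap lists each held 1 of the 92 genes, and the seed list none. These lists hold chosen genes and not whole families, so further genes of these kinds may be among the 92. Of 7 tested heat shock genes, 4 were called higher and 0 lower, and HSP17.6A, next to HSP17.6II on chromosome 5, stood at 6.30 FPKM in acc1-5 and 0.709 FPKM in WT. Of 3 root cap factors, NAC015 and NAC070 were called higher, beside 10.9% of all tested genes, and SMB had 1.18 FPKM in acc1-5 and 0.125 FPKM in WT (q = 0.116 in the authors' deposited table). NAC070 stood at 0.981 FPKM in acc1-5 and 0.205 FPKM in WT. Of 13 seed storage and oil body genes, 6 were tested, and 1, OLEO4, was called higher, with list sums of 20.5 FPKM in acc1-5 and 3.26 FPKM in WT, with 3 listed at 0 in acc1-5 and 7 in WT. None of those seed genes is among the 92, although LEA18 is a gene of the same stage. The lists of phosphate starvation, with 18 of 18 tested genes called higher, and of jasmonate response, with 17 of 23 called higher and 1 lower, hold none of the 92 genes. These lists also hold chosen genes only, so other genes of these responses may be among the 92. List medians on the log2 scale with 0.1 added were 1.58 for low oxygen, 2.52 for triterpene clusters, 1.97 for heat shock, 2.51 for the root cap, 2.47 for phosphate and 1.35 for jasmonate, beside -0.01 over all tested genes. Counts and medians of the low-oxygen, triterpene, heat shock and root cap lists include their genes of the 92, which were chosen for a higher acc1-5 level. The triterpene median is the value of CYP71A16, 1 of the 92. The seed list had a median of 2.82 over its 6 tested genes, of which CRA1, CRU3 and OLEO1 had a lower bound of 0 in acc1-5 and were not called.

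The authors' test called most of the 92 genes, but not those with the lowest WT levels above 0. Of 91 tested genes, 66 were called higher at q under 0.05 in the authors' deposited table (72.5%), beside 10.9% of all tested genes, and since the same levels chose the genes nothing is read from that share. Bounds that do not overlap, with acc1-5 above, were held by 5.24% of all tested genes. The smallest q that the authors' program gives, 0.000746, was held by 34 of the 92. The authors' program marked AT2G34210, also named SPT5-1 after a transcription elongation factor, as having too few data, at 2.50 FPKM in acc1-5 and 0.278 FPKM in WT and at a locus that overlaps another gene.

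Calls followed the WT level in steps. All 5 genes listed at 0 in WT were called, each at the smallest q of 0.000746 in the authors' deposited table. AT4G22460 is among them, although its lower acc1-5 bound is 3 steps. Of the 9 genes above 0 but under 0.1 FPKM in WT, 0 were called, with q between 0.186 and 0.574 in the authors' deposited table, although their bounds did not overlap. Calls then numbered 6 of 15 tested genes from 0.1 to 0.2 FPKM, 12 of 16 from 0.2 to 0.3 FPKM, 14 of 16 from 0.3 to 0.4 FPKM and 29 of 30 from 0.4 to 0.5 FPKM. Among all genes with separate bounds and at least 2 FPKM in acc1-5, 121 of 123 between 0.5 and 1 FPKM in WT were called. The uncalled 9 include PAP5 (q = 0.574), EXPA17 (q = 0.411) and AT5G61550, which stood at 2.60 FPKM in acc1-5 and 0.000155 FPKM in WT (q = 0.539), all q in the authors' deposited table. FH3, with the third highest level and a lower acc1-5 bound of 441 steps, was not called either (q = 0.435 in the authors' deposited table), nor was AT2G01422 (q = 0.338 there). Also not called there were LEA18 (q = 0.0528), ZFP10 (q = 0.0574), UMAMIT34 (q = 0.0700) and AT5G55110 (q = 0.0715). The same holds for AT1G67150 (q = 0.188), AT1G76640 (q = 0.198), AT3G60650 (q = 0.440), GDU6 (q = 0.568) and AT4G26460 (q = 0.568). The 32 genes with the opposite pattern, under 0.5 FPKM in acc1-5 and on in WT by the same limits, showed 8 of 8 called where acc1-5 was listed at 0, 1 of 4 from there to 0.1 FPKM, 1 of 3 from 0.1 to 0.2 FPKM and 16 of 16 above that.

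**Figure D4:**
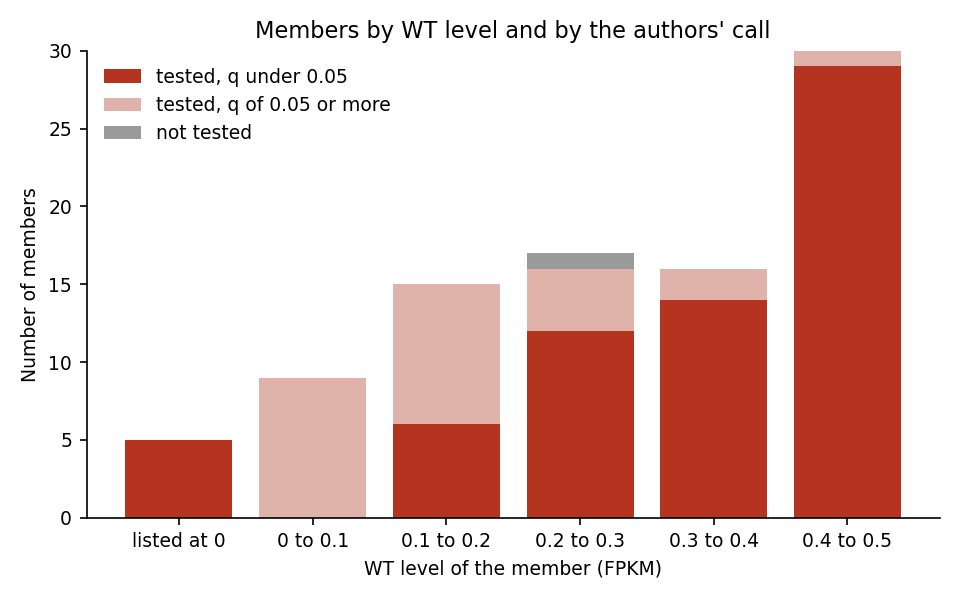
Number of the 92 genes by WT level in FPKM, split by the authors' call. All 5 genes listed at 0 and 29 of 30 genes between 0.4 and 0.5 FPKM were called, and 0 of 9 between 0 and 0.1 FPKM.

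The 92 genes lay on all 5 chromosomes. Coordinates are those of the deposited table on the TAIR10 build, counted from 1. Chromosome 4 held 20 of them, a share of 21.7% (95% Wilson interval 14.5 to 31.2%, for counting error only), beside 15.4% of all nuclear genes and 16.9% of the genes called higher. Chromosome 1 held 17 (18.5%, 11.9 to 27.6%), beside 25.3% of all nuclear genes. Chromosomes 2, 3 and 5 held 17, 15 and 23 genes. The intervals of chromosomes 1 and 4 include the share of all genes, so a departure from it was not detectable with this number of genes.

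**Figure D5:**
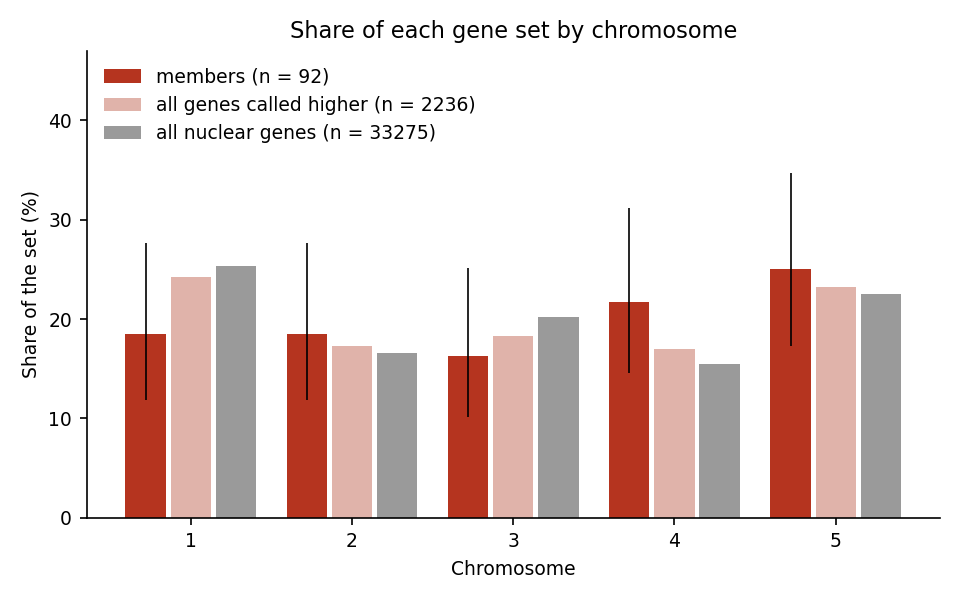
Share of each set on the 5 nuclear chromosomes, in percent, for the 92 genes (red, with 95% Wilson intervals), all genes called higher (pink) and all nuclear genes (grey). The red intervals include the grey shares on every chromosome.

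Within 20 kb of another of the 92 lay 6 genes (6.52%), in 3 adjacent pairs, beside 4 of the 32 genes of the opposite pattern (12.5%). A larger set has more possible neighbours, so shares from sets of 92 and 32 genes cannot be compared directly. ERF71 (chromosome 2, 19502802 to 19503569) was followed after 651 bases by AT2G47530 (19504220 to 19504971), which had 3.25 FPKM (1.08 to 5.31) in acc1-5 and 0.415 FPKM (0 to 0.807) in WT. AT4G05370 and AT4G05380 (chromosome 4, 2736135 to 2737983) lay 562 bases apart, at 3.39 and 2.82 FPKM in acc1-5 and 0.381 and 0.0896 FPKM in WT, and neither was called (q = 0.0555 and 0.186 in the authors' deposited table). AT4G19239 and AT4G19240 (chromosome 4, 10527516 to 10529092) lay 24 bases apart, the closest pair. Fragments of genes that lie this close can be counted to either, and the strand of the reads is not given in the sources used here.

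At 50 kb, 11 genes had another of the 92 nearby. The added ones include scpl30, FH3 and ABCG43, which lie within 76.9 kb of chromosome 4 (8625855 to 8702727) among 12 other genes, all tested. Of these others 5 were called higher and 1 lower. BAM5, a beta-amylase gene that starts 579 bases after FH3, stood at 332.55 FPKM (163 to 502) in acc1-5 and 18.8 FPKM (12.2 to 25.4) in WT. The neighbouring transporter genes ABCG30 and ABCG42 were called higher, at 4.23 and 7.60 FPKM in acc1-5 and 1.20 and 4.34 FPKM in WT, whereas ABCG41 was not (q = 0.839 in the authors' deposited table). CYP97B3, a carotenoid hydroxylase gene 242 bases after scpl30, was called lower, at 41.0 FPKM in acc1-5 and 59.5 FPKM in WT. AT4G12170 and AT4G12280 lie at the ends of a stretch of 29.0 kb on chromosome 4, in which 1 of 4 other tested genes was called higher.

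The genes next to the 92 were compared with those next to other genes. Of 128 tested flanking genes that are not among them, 30 were called higher (23.4%) and 9 lower (7.03%). The share was 19.8% next to the other genes called higher and 10.9% over the flanks of all nuclear genes. Both of these shares kept flanking genes of their own set, unlike the share for the 92. A flanking gene outside the 92 that was called higher lay next to 28 of them, and for 11 of these it stood at 10 or more times their own acc1-5 level. These 11 include FH3 beside BAM5, and SK11, which lies 2381 bases from AT4G34200 at 342 FPKM in acc1-5 and 84.2 FPKM in WT. AT4G22460, at 3 steps, lies 573 bases from AT4G22470, which stood at 40.1 FPKM in acc1-5 and 9.18 FPKM in WT. The part of fragments from such neighbours in the levels of the 92 was not tested.

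The limits divide a continuous range of levels. Just under 0.5 FPKM in WT lay AT2G36210 (0.495 FPKM), AT4G28410 (0.493 FPKM; also named RSA1, and at 2.96 FPKM in acc1-5) and AT3G42180 (0.488 FPKM; 3.73 FPKM in acc1-5). Just above it lay AT4G33730 (0.5001 FPKM), AT3G20590 (0.508 FPKM) and AT4G31470 (0.513 FPKM), with 5.43, 2.99 and 3.84 FPKM in acc1-5. At the limit of 2 FPKM in acc1-5, BGLU27 (2.01 FPKM), TOM20-1 (2.02 FPKM) and NPY2 (2.03 FPKM) were inside, and EDA36 (1.98 FPKM), RHS16 (1.98 FPKM) and AT2G36295 (1.96 FPKM) outside. EDA36, RHS16 and AT2G36295 stood at 0.389, 0.0990 and 0.224 FPKM in WT. The narrowest gaps between bounds were those of AT5G46060 (0.886 FPKM as the lower acc1-5 bound and 0.846 FPKM as the upper WT bound), AGP30 (0.902 and 0.859 FPKM) and TOM20-1 (0.547 and 0.463 FPKM). Another 23 genes met all limits but that on the bounds, nearest among them AT4G18680 and the seed genes CRU3 and M17. CRU3 stood at 3.73 FPKM in acc1-5 with bounds of 0 to 7.37 FPKM and was listed at 0 in WT, and M17 at 2.47 FPKM in acc1-5 with bounds of 0 to 4.93 FPKM and 0 in WT.

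A further transcript was listed for 10 of the 92 genes, and 13 such transcripts in all, of which 3 had a higher level in acc1-5. Summed over transcripts, AT1G67150 stood at 2.98 FPKM in acc1-5 and 0.547 FPKM in WT, and AT3G42180 at 5.84 FPKM in acc1-5 and 0.746 FPKM in WT, so these 2 genes exceeded 0.5 FPKM in WT as whole genes. AT5G61550 had a second transcript at 0.000671 FPKM in acc1-5 and 0.193 FPKM in WT, so that its sum was 2.60 FPKM in acc1-5 and 0.193 FPKM in WT.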

How the data were processed

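RNA of 3 acc1-5 and 3 WT seedling libraries was measured by sequencing. Reads were processed with TopHat 1.4.0, Bowtie, Cufflinks 2.1.1 and Cuffdiff 2.1.1 on TAIR10, per the submitters' processing notes. The authors deposited FPKM with a lower and an upper bound, as 1 value per genotype and transcript; their confidence level, and how libraries were merged, is not given in the sources used here. Columns named ACC1 were read as acc1-5. The authors' deposited table of comparisons holds log2 fold changes of acc1-5 over WT, p-values and q-values, and a gene was called where it was tested and q was under 0.05.

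From these, genes were reduced to 1 transcript each, the limits on level, length and bounds were applied, and positions and neighbours were read from the deposited coordinates (Python 3.11.15, pandas 2.3.3). Names came from RefSeq (TAIR10.1), which matched 91 of the 92 genes. Selection and counting were tested on simulated data. Members and lists were chosen with earlier results of these data known. Named are the 25 genes with the highest acc1-5 level, genes in the lists, genes within 20 kb of another, the 3 genes on each side of every limit and, chosen after their values were seen, the genes with a symbol and genes next to them. Naming by shared annotated product, and a search of promoters for motifs, were planned and not made, because the tables used here hold neither products nor sequences. No count test was run, since levels were not whole multiples of a common step, and single libraries have no values of their own.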

Additional observations from a re-analysis of the deposited data

How the results depend on the processing

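No paired analysis was possible because each genotype has 1 value per transcript, and leaving out a library was not possible for the same reason. The planned motif alternative was not run. The number of genes, 92, followed the limits: 34 with a WT level under 0.25 FPKM, 214 under 1 FPKM, 200 with an acc1-5 level of at least 1 FPKM, and 22 with at least 4 FPKM. The median log2 difference of 3.03 was 3.96 under 0.25 FPKM in WT, 3.94 at 4 FPKM or more in acc1-5, and 1.70 with 1 added in place of 0.1. The called share of 72.5% was 47.1% under 0.25 FPKM in WT, 87.3% under 1 FPKM, and 100% by construction where q under 0.05 replaced the bounds. Chromosome 4 held 31.8% at 4 FPKM or more, and 11 genes had another within 50 kb. Dropping the length limit left 92 genes, dropping the bounds 115, the q rule 74 (66 shared), and summing transcripts 88. Requiring a lower bound above 10 steps, chosen after seeing the data, left 81. At q under 0.01, 55 of the 92 genes were called, and the lists had 0 called seed genes, 1 root cap gene and 0 lower jasmonate genes. The lower bound in acc1-5 was 10 steps or fewer for 11 of the 92 genes.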
